A study of Mus musculus with 6 samples.

Results

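The genes described here are 37 genes of the fetal hepatocyte, of which 36 encode proteins that hepatocytes secrete into the blood and the last, Hnf4a, encodes a nuclear receptor that drives hepatocyte genes. They were taken by name from a table of expression levels with 56359 rows, and all 37 were found. Of these, 35 reached 1 TPM, a level scaled by transcript length and by the size of the library, in at least 3 of the 6 samples and were tested with the 16411 genes that did so. Apoa4 and Fetub fell short and are given by their values only.

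RNA was sequenced from 3 Tmem216-/- and 3 wild type C57BL/6 mouse samples, all at embryonic day 12. Tmem216 encodes a membrane protein at the base of the primary cilium, and mutations of the human gene cause ciliopathies of the Joubert and Meckel type. The labels give "Embryo" as the source and do not state which part was taken, whether each sample is 1 embryo, or how the allele was made. The p-values therefore reflect how far these samples spread, and that spread may be technical. Tmem216 itself had 2.25, 0.51 and 1.39 TPM in Tmem216-/- replicates 1, 2 and 3, against 31.0, 30.7 and 17.4 TPM in wild type replicates 1, 2 and 3. Its log2 fold change was -3.55 with an adjusted p of 0.0265 by limma. The read depth behind the TPM values is unknown.

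At this age the mouse liver has just formed from hepatoblasts, the shared precursors of hepatocytes and bile duct cells, and blood-forming cells have moved into it. Hepatoblasts already secrete plasma proteins, with alpha-fetoprotein and albumin the best known, while most enzymes of drug and nitrogen metabolism come on around and after birth. The yolk sac visceral endoderm makes many of the same proteins. The genes are switched on by a small set of liver-enriched factors, among them HNF4, FOXA and C/EBP proteins.

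Promoters of 4 of the genes are shown because the results turn on genes with like profiles, and because Afp and Alb are neighbours. Each run is the 170 bases before the transcription start in RefSeq (GRCm38.p6), read 5′ to 3′ on the strand of the gene, with capitals for matches to the C/EBP core TTGCNNAA on either strand.
Afp, chr5:90490544-90490713, plus strand: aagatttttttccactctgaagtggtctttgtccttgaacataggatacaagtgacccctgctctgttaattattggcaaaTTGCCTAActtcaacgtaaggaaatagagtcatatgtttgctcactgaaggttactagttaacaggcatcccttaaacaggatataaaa
Alb, chr5:90460700-90460869, plus strand: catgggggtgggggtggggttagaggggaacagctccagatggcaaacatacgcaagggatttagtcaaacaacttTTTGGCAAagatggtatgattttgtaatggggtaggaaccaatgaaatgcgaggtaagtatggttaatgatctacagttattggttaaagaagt
Fga, chr3:83025983-83026152, plus strand: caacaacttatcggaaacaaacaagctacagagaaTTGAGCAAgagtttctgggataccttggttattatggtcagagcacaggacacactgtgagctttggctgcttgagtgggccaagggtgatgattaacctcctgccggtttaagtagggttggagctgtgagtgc
Serpina1b, chr12:103738190-103738359, minus strand: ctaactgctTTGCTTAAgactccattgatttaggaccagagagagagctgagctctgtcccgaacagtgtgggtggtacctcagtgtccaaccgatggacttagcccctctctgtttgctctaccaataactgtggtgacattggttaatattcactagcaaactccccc

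RefSeq gave 34 promoters for 30 of the 37 genes, each with 250 bases before and 50 after the start. TTGCNNAA stood on either strand in 13 of the 34, or 38.2%, against 10.8% of all 32851 promoters of this length. The FOXA core TGTTTAC stood on either strand in 4, or 11.8%, against 3.65%, and the HNF4 core CAAAGTNCA on either strand in 2, or 5.88%, against 1.41%. TATAAA on the strand of the gene stood in 7, or 20.6%, against 8.32%. No matches of different motifs overlapped in these promoters. A match is a run of letters and not a measured binding site. Serpina1a and Serpina1b shared 206 of 295 bases, or 69.8%, when aligned without gaps at the best offset. The C/EBP core began 161 bases before the start in Serpina1b and lay after the start in Serpina1a.

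Most of these genes were abundant in 3 samples and low in the other 3, and the samples of both kinds came from both genotypes. Summed over all genes but Ttr and Vtn, the level was 1483, 106.2 and 108.8 TPM in Tmem216-/- replicates 1, 2 and 3, against 2991, 3466 and 130.8 TPM in wild type replicates 1, 2 and 3. Tmem216-/- replicate 1 thus stood with wild type replicates 1 and 2, and wild type replicate 3 stood with Tmem216-/- replicates 2 and 3. The number of genes at 1 TPM or more was 35, 17 and 19 in the Tmem216-/- samples, against 37, 35 and 23 in the wild type samples. In 34 of the 37 genes, and in 32 of the 35 tested, the highest 3 samples were Tmem216-/- replicate 1 and wild type replicates 1 and 2. The same held for 6.92% of all tested genes, and this way of counting was chosen after the values were seen. Because the samples fall apart in this way, no correlation between pairs of the genes is given.

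**Figure D1:**
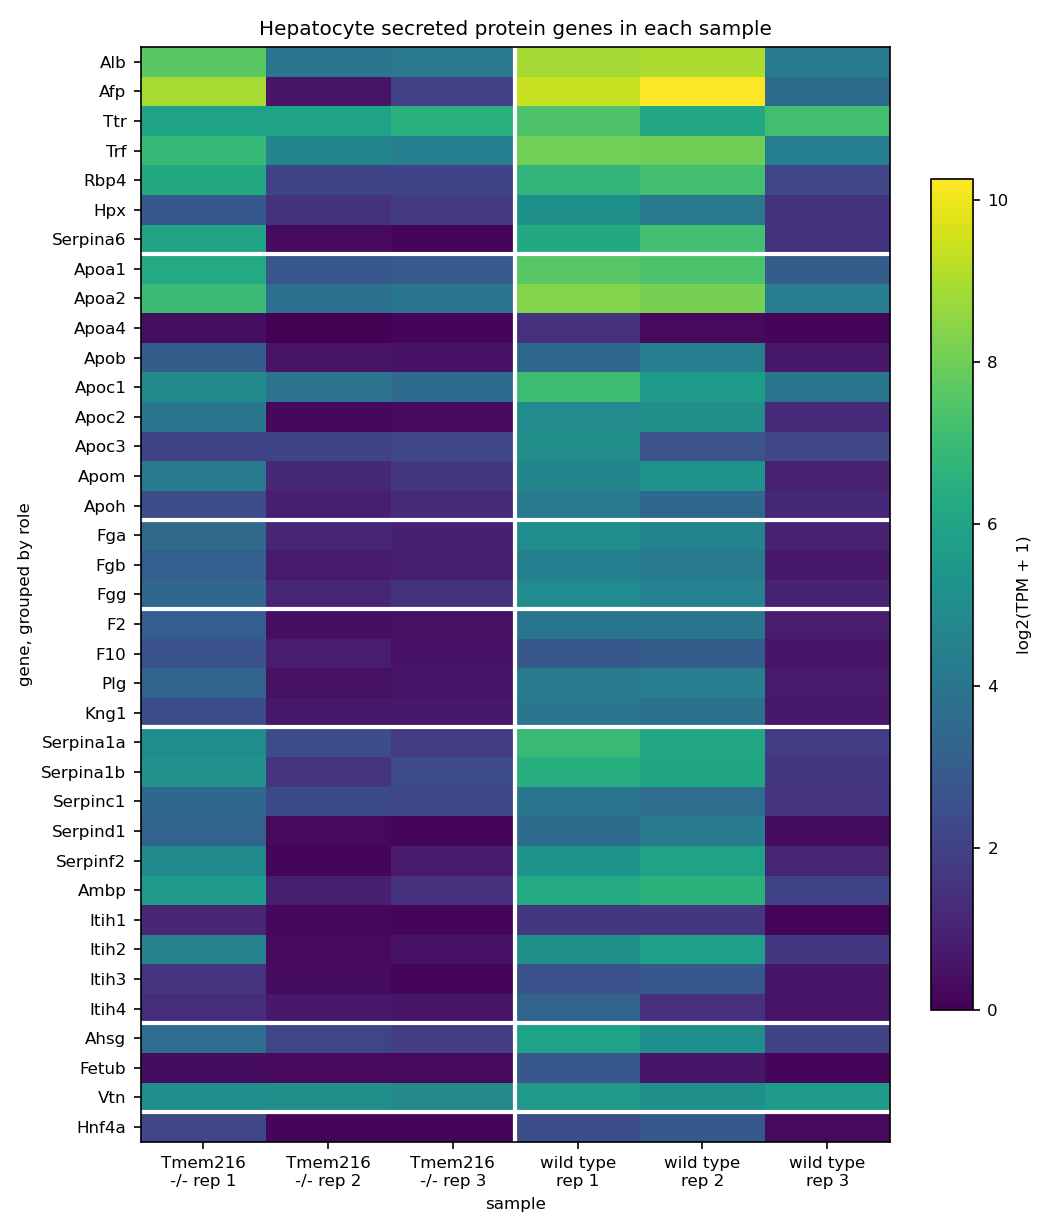
Each row is 1 of the 37 genes, grouped by role with white lines between the groups, and each column is 1 sample, with Tmem216-/- samples left of wild type samples; the colour is log2(TPM + 1). In 34 of the 37 rows the highest 3 values are Tmem216-/- replicate 1 and wild type replicates 1 and 2, and Ttr, Vtn and Apoc3 are the exceptions.

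Among the carrier proteins, Afp had the highest level of any of the genes. Afp, the main plasma protein of the fetus, had 480.4, 0.47 and 3.07 TPM in Tmem216-/- replicates 1, 2 and 3, against 669, 1228 and 11.3 TPM in wild type replicates 1, 2 and 3. Alb, which replaces it as the main plasma protein after birth, had 198, 15.3 and 16.4 TPM in the Tmem216-/- samples, against 469.8, 514 and 18.4 TPM in the wild type samples. Both genes therefore ranged widely within each genotype, and Tmem216-/- replicate 1 lay between wild type replicate 3 and the other wild type samples. The iron carrier Trf had 116, 25.1 and 20.7 TPM in the Tmem216-/- samples, against 266, 265 and 20.5 TPM in the wild type samples. Serpina6, the corticosteroid-binding globulin, had 62.6, 0.24 and 0.12 TPM in the Tmem216-/- samples, against 73.3, 146 and 1.85 TPM in the wild type samples. The retinol carrier Rbp4 and the haem scavenger Hpx had the same highest 3 samples. In bulk tissue, fewer hepatocytes and less RNA of these genes per hepatocyte cannot be told apart.

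The apolipoproteins, most of which build and direct lipoprotein particles, had the same split in 8 of 9 genes. Apoa2, a structural protein of high-density lipoprotein and the most abundant of them, had 132, 12.6 and 15.5 TPM in the Tmem216-/- samples, against 326, 288 and 19.8 TPM in the wild type samples. Apoa1, the chief protein of the same particles, had 76.5, 6.02 and 6.22 TPM in the Tmem216-/- samples, against 190.6, 162 and 7.06 TPM in the wild type samples. Apob, the scaffold of very-low-density lipoprotein, was lower, with 7.19, 0.46 and 0.42 TPM in the Tmem216-/- samples, against 9.65, 19.9 and 0.62 TPM in the wild type samples. All 3 genes overlapped between the genotypes. Apoc2, the activator of lipoprotein lipase, and Apom, a carrier of sphingosine phosphate, followed Apob in being higher in wild type replicate 2 than in replicate 1. Apoc1 and Apoh had the reverse order of those samples. Apoc3, an inhibitor of lipoprotein lipase, was the exception among the tested apolipoproteins: it had 3.34, 3.20 and 3.58 TPM in the Tmem216-/- samples, against 32.6, 5.11 and 3.57 TPM in the wild type samples. It stood high in wild type replicate 1 and at like levels in the other 5 samples, apart from a modest excess in wild type replicate 2. Apoa4, 1 of the 8 genes, reached 0.31, 0.00 and 0.09 TPM in the Tmem216-/- samples, against 1.72, 0.20 and 0.11 TPM in the wild type samples. It was above 1 TPM in wild type replicate 1 only.

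**Figure D2:**
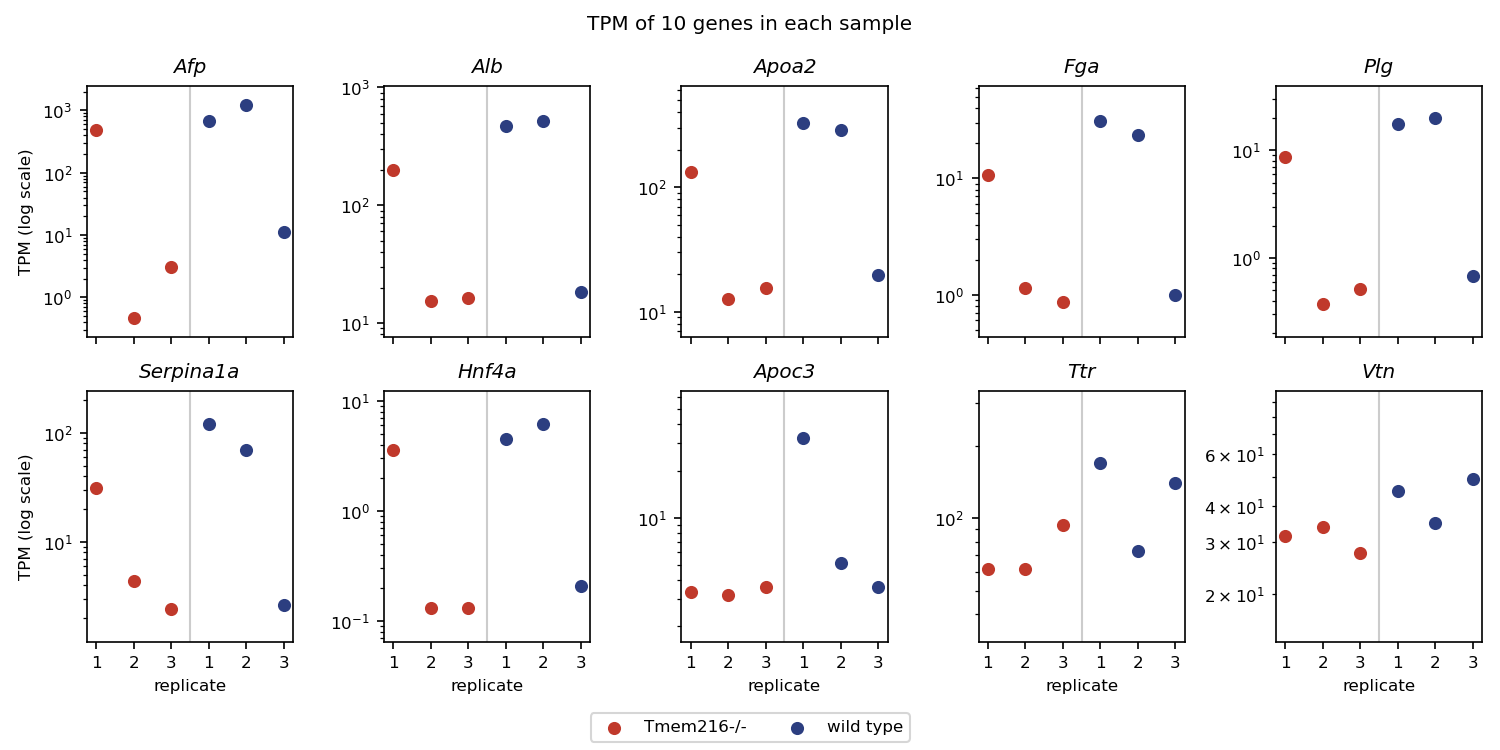
TPM on a log scale for 10 of the genes, with 1 point per sample, Tmem216-/- replicates 1 to 3 in red on the left and wild type replicates 1 to 3 in blue on the right. In Afp, Alb, Apoa2, Fga, Plg, Serpina1a and Hnf4a the low samples are Tmem216-/- replicates 2 and 3 and wild type replicate 3, while Apoc3, Ttr and Vtn are arranged otherwise.

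The genes of the clotting system had the same high and low samples. Fga, which with Fgb and Fgg encodes the chains of fibrinogen, had 10.6, 1.15 and 0.87 TPM in the Tmem216-/- samples, against 31.2, 23.6 and 1.00 TPM in the wild type samples. The other chains had the same highest 3 samples. Fgb ranged between 0.65 and 7.28 TPM in the Tmem216-/- samples and between 0.61 and 20.6 TPM in the wild type samples. Fgg ranged between 1.16 and 9.60 TPM in the Tmem216-/- samples and between 1.03 and 30.4 TPM in the wild type samples. The 3 chains sit in 1 stretch of 42.1 kb on chromosome 3. Plg, the precursor of the fibrin-cleaving protease plasmin, had 8.63, 0.37 and 0.51 TPM in the Tmem216-/- samples, against 17.6, 19.9 and 0.68 TPM in the wild type samples. F2 (prothrombin), F10 and Kng1 (kininogen) had the same highest 3 samples. Their levels ran between 4.57 TPM (Kng1) and 7.28 TPM (F2) in Tmem216-/- replicate 1, against 6.02 TPM (F10) and 15.2 TPM (Kng1) in wild type replicate 1.

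All 10 protease inhibitor genes had these highest 3 samples. Serpina1a, a gene for the elastase inhibitor antitrypsin, had 31.0, 4.35 and 2.43 TPM in the Tmem216-/- samples, against 121, 70.0 and 2.64 TPM in the wild type samples. Its near copy Serpina1b had 35.8, 1.98 and 4.27 TPM in the Tmem216-/- samples, against 85.1, 66.8 and 2.19 TPM in the wild type samples. Reads of such close paralogs can be assigned to either gene, so the split between them is uncertain. Serpinf2 (antiplasmin) was nearly absent from the low samples and had 29.3, 0.14 and 0.67 TPM in the Tmem216-/- samples, against 38.2, 59.0 and 1.08 TPM in the wild type samples. Itih2, a heavy chain that is linked to the light chain from Ambp and carried to hyaluronan, had 22.5, 0.21 and 0.41 TPM in the Tmem216-/- samples, against 34.7, 54.3 and 2.08 TPM in the wild type samples. Ambp and the thrombin inhibitor Serpind1 had the same form, with wild type replicate 2 above replicate 1. Serpinc1 (antithrombin) differed least between its highest and lowest sample, with 9.97, 3.91 and 3.62 TPM in the Tmem216-/- samples, against 15.4, 11.99 and 1.99 TPM in the wild type samples. Itih1, Itih3 and Itih4 stayed under 10 TPM in all samples.

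Of the fetuins, Ahsg, which binds calcium phosphate in plasma, had 12.1, 3.47 and 2.60 TPM in the Tmem216-/- samples, against 61.5, 33.8 and 3.14 TPM in the wild type samples. Fetub had 0.26, 0.21 and 0.21 TPM in the Tmem216-/- samples, against 5.90, 0.55 and 0.10 TPM in the wild type samples. Fetub was thus above 1 TPM in wild type replicate 1 only. Hnf4a, the only transcription factor of the set, had 3.56, 0.13 and 0.13 TPM in the Tmem216-/- samples, against 4.48, 6.16 and 0.21 TPM in the wild type samples. It thus had the same high and low samples as the genes for secreted proteins.

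Ttr and Vtn did not share the split. Ttr, which carries thyroxine and is also made by the choroid plexus, had 61.7, 61.4 and 93.9 TPM in the Tmem216-/- samples, against 169, 73.0 and 140.5 TPM in the wild type samples. Vtn, the adhesion protein vitronectin, had 31.5, 33.8 and 27.5 TPM in the Tmem216-/- samples, against 45.0, 34.9 and 49.2 TPM in the wild type samples. Vtn was the only gene of the set whose groups did not overlap. Such genes, lower in Tmem216-/- in all samples, made up 4.83% of all tested genes.

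Between the genotypes, no gene of the set passed the test. All 35 tested genes had a lower mean log2 level in the Tmem216-/- samples, with a median log2 fold change of -1.56, beside -0.01 and 51.75% lower for all tested genes. None of the 35 was called by limma at a Benjamini-Hochberg adjusted p of 0.05, and the adjusted p was 0.983 for each. Of all tested genes 0.104% were called, 16 higher and 1 lower in Tmem216-/-, a number that ran between 0 and 27 when each sample was left out in turn. Vtn alone had an unadjusted limma p under 0.05 (log2 fold change -0.45, SE 0.15), and 4.46% of all tested genes did. The fold changes, all on the log2(TPM + 1) scale, ran between -3.93 (SE 2.56) for Afp and -0.45 (SE 0.68) for Serpinc1. For Alb the log2 fold change was -2.13 (SE 1.51), for Apoa2 -2.01 (SE 1.29), for Ttr -0.75 (SE 0.33) and for Hnf4a -1.01 (SE 0.82). The exact two-sided permutation p over all 20 ways to divide the 6 samples was 0.2 for Alb and 0.2 for Afp, where the smallest that 3 against 3 samples allow is 0.1. The size of the median fold change varied with the sample left out, while its sign stayed negative in each such run. The median was -2.72 without wild type replicate 3, the wild type sample with low levels, where the lowest adjusted p by limma was 0.292. It was -0.96 without wild type replicate 1.

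**Figure D3:**
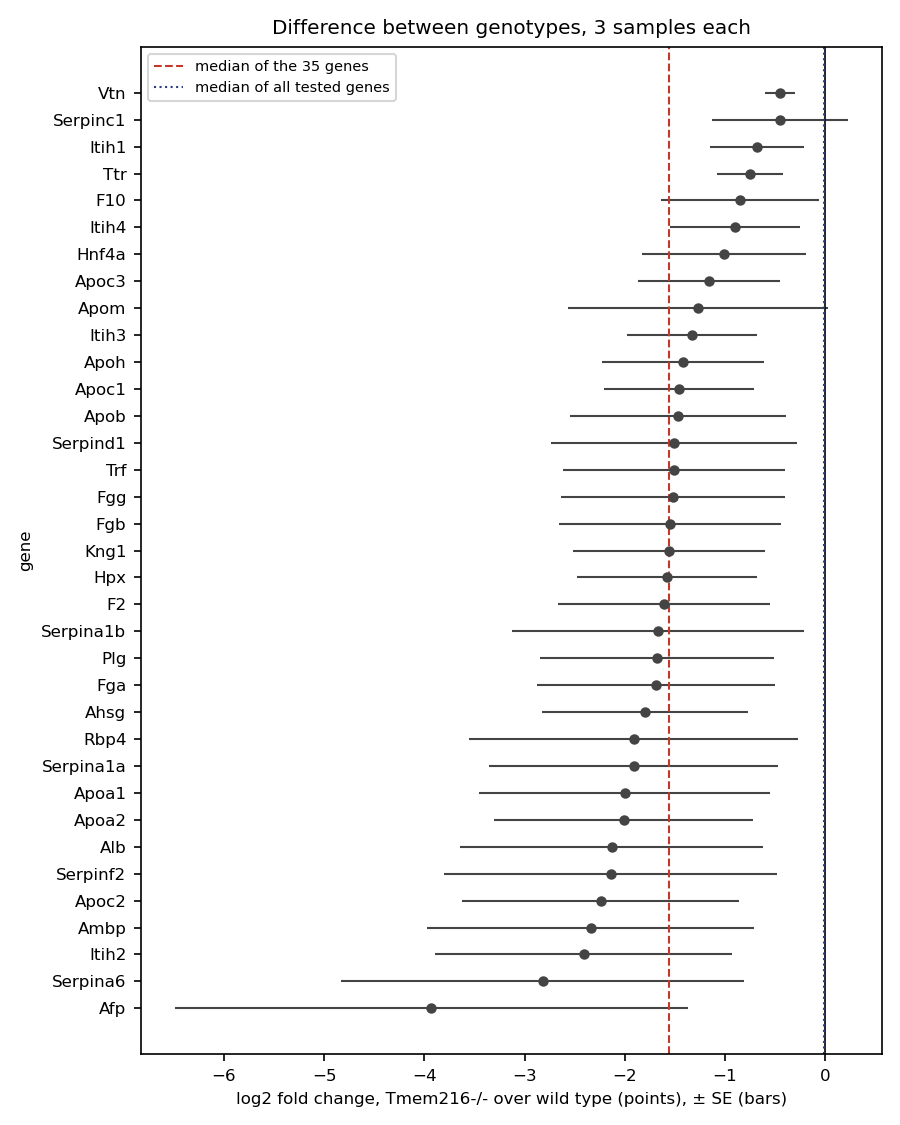
Points are log2 fold changes of Tmem216-/- over wild type for the 35 tested genes and bars are ± SE, with 3 samples in each genotype. All points lie below 0, their median (dashed) is -1.56 against -0.01 for all tested genes (dotted), and the bars are long except for Vtn and Ttr.

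The spread within each genotype was wider in these genes than over the whole table. The median SD of log2(TPM + 1) within the Tmem216-/- samples was 1.45 for the set and 0.12 for all tested genes. Within the wild type samples it was 2.09 for the set and 0.24 for all tested genes. Tmem216-/- replicate 1 exceeded the higher of replicates 2 and 3 by a median of 8.38-fold. The lower of wild type replicates 1 and 2 exceeded replicate 3 by a median of 18.7-fold. Among the 3 samples with high levels, Tmem216-/- replicate 1 was below both wild type replicates in 36 of the 37 genes, Apoa4 being the exception, and its level was a median of 42.1% of that in wild type replicate 1.

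The genes did not keep fixed proportions to each other. The ratio of Apoa1 to Alb differed little between samples: it was 0.387, 0.393 and 0.379 in the Tmem216-/- samples, against 0.406, 0.316 and 0.384 in the wild type samples. The ratio of Afp to Alb was 2.43, 0.0307 and 0.187 in the Tmem216-/- samples, against 1.42, 2.39 and 0.615 in the wild type samples. Afp thus exceeded Alb in the 3 samples with high levels and lay below it in the other 3. The ratio of Apoc3 to Alb ran the other way, at 0.0169, 0.209 and 0.218 in the Tmem216-/- samples, against 0.0694, 0.00995 and 0.194 in the wild type samples.

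The order of wild type replicates 1 and 2 divided the genes as well: 22 were higher in replicate 1 and 15 in replicate 2. Genes with more RNA in wild type replicate 2, such as Afp, Serpina6, Serpinf2 and Itih2, were among those that nearly disappeared in Tmem216-/- replicates 2 and 3. Genes with more in wild type replicate 1, such as Apoc3, Itih4, Apoc1 and Hpx, kept more of their level there. Across the 37 genes, with 0.1 TPM added, the log2 ratio of wild type replicate 1 to replicate 2 and the log2 ratio of Tmem216-/- replicate 2 to replicate 1 had a Pearson r of 0.72 and a Spearman rho of 0.82. With Tmem216-/- replicate 3 in place of replicate 2 these were 0.78 and 0.85. The paired ratios share no sample, but they share the genes, which are not independent replicates, so the values are a description with no test.

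**Figure D4:**
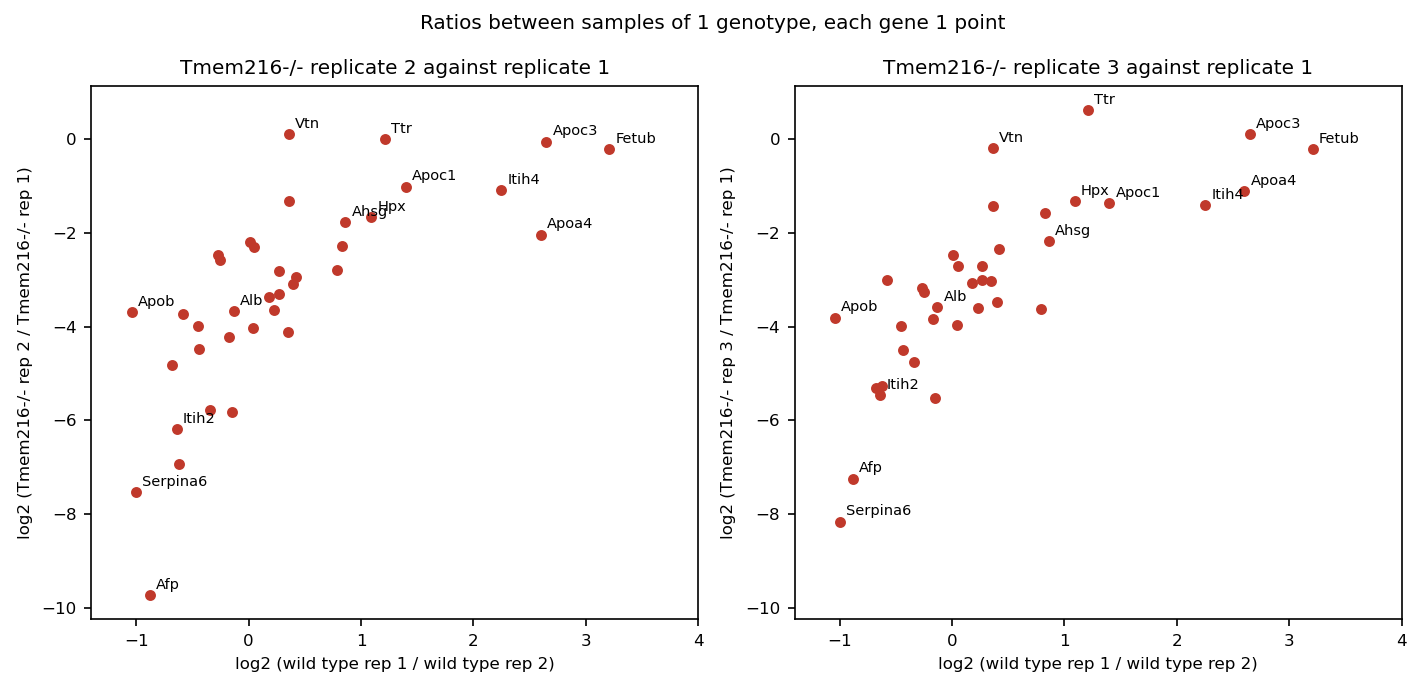
Each point is 1 of the 37 genes; the x axis is the log2 ratio of wild type replicate 1 to replicate 2 and the y axis the log2 ratio of Tmem216-/- replicate 2 (left) or replicate 3 (right) to replicate 1, with 0.1 TPM added. Points rise to the right in both panels, with Pearson r of 0.72 and 0.78, and Afp and Serpina6 lie at the lower left.

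A list of 30 genes typical of the adult liver, added after the values were seen, had its highest sum in wild type replicate 1. Its summed level was 26.0, 22.4 and 25.0 TPM in the Tmem216-/- samples, against 176, 42.2 and 20.3 TPM in the wild type samples, and 25 of the 30 genes were highest in wild type replicate 1. The highest of the list by mean, Mup3, a major urinary protein with near-identical copies, had 2.64, 1.76 and 2.79 TPM in the Tmem216-/- samples, against 28.4, 3.12 and 3.37 TPM in the wild type samples. Car3, the next, was not high in a single sample, with 4.88, 6.45 and 6.07 TPM in the Tmem216-/- samples, against 9.54, 9.01 and 3.51 TPM in the wild type samples. The genes of the list thus did not all share 1 profile. Cyp2e1, a cytochrome P450 of the mature liver chosen after its values were seen, had 1.84, 1.53 and 1.72 TPM in the Tmem216-/- samples, against 29.8, 1.96 and 1.03 TPM in the wild type samples. Tat, a tyrosine-degrading enzyme that comes on at birth and one of the defining hepatocyte markers outside that list, had 0.24, 0.20 and 0.10 TPM in the Tmem216-/- samples, against 3.89, 0.17 and 0.16 TPM in the wild type samples. Of the 37 genes, 22 were higher in wild type replicate 1 than in replicate 2, with the widest gaps in Fetub, Apoa4, Apoc3 and Itih4. The part of that sample's adult liver genes in the levels of the 37 genes was not tested, and without that sample the median fold change is the -0.96 given above. Of the 8 adult genes that could be tested, all had lower values in Tmem216-/- and 0 were called by limma.

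Other liver lists gave the following counts, with 0 genes called by limma in each. A gene that reached 1 TPM only in Tmem216-/- replicate 1 and wild type replicates 1 and 2 was tested because of those samples. Counts of tested genes with those highest 3 samples can thus be partly fixed by the filter, here and in the later lists. Of 37 other tested genes for hepatocyte-secreted proteins, 5 had higher and 32 lower values in Tmem216-/-, with a median log2 fold change of -1.0, and 27 had the same highest 3 samples. Of 25 tested hepatocyte enzymes and transporters, 1 was higher and 24 were lower in value (median -0.50), and 15 had those highest 3 samples. Among all genes found, tested or not, 41 of 67 for secreted proteins and 32 of 49 enzymes and transporters were highest in wild type replicate 1. Of 18 tested hepatocyte transcription factors, 8 were higher and 10 lower in value (median -0.04), and 5 had those highest 3 samples. Among the markers that define hepatocytes, Foxa3 had 1.42, 0.18 and 0.03 TPM in the Tmem216-/- samples, against 1.08, 1.63 and 0.19 TPM in the wild type samples. Cps1 and Tdo2, enzymes of urea formation and tryptophan breakdown, were at most 0.43 TPM (Cps1) and 0.58 TPM (Tdo2) in the Tmem216-/- samples, and highest in wild type replicate 1 at 2.83 TPM (Cps1) and 3.09 TPM (Tdo2). Cebpa had 3.24, 1.65 and 2.39 TPM in the Tmem216-/- samples, against 5.13, 5.38 and 2.70 TPM in the wild type samples. The early hepatocyte markers Alb, Hnf4a and Foxa3 were thus highest in Tmem216-/- replicate 1 and wild type replicates 1 and 2, with Hnf4a and Foxa3 close to 0 in the others, and the later markers Cps1, Tat and Tdo2 were highest in wild type replicate 1. Of 13 bile duct and hepatoblast genes, 3 were higher and 10 lower in value (median -0.15), and 2 had those highest 3 samples. The stellate cell and mesothelium list had 10 higher and 5 lower values of 15 (median 0.19), and 3 with those highest 3 samples.

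Markers of cells that share the fetal liver, or that lie elsewhere, varied beside the set. Red cell precursors, which mature in the fetal liver, are marked by 18 genes other than globins, and 15 of these had the same highest 3 samples. Their summed level was 478, 251 and 357 TPM in the Tmem216-/- samples, against 495, 628 and 258 TPM in the wild type samples. Klf1, the erythroid transcription factor chosen here after its values were seen, had 24.2, 6.90 and 8.71 TPM in the Tmem216-/- samples, against 30.7, 43.9 and 7.17 TPM in the wild type samples. All 18 had lower values in Tmem216-/- (median log2 fold change -0.40) and 0 were called. The full list of 22 with the globins had 2 higher and 20 lower values (median -0.34), and 16 had the same highest 3 samples. Its summed level was 28760, 11690 and 23510 TPM in the Tmem216-/- samples, against 26400, 25630 and 18450 TPM in the wild type samples. In that sum Tmem216-/- replicate 3 lay close to wild type replicate 2, unlike in the set. Of 10 tested genes of the liver sinusoid and its macrophages, 5 were higher and 5 lower in value (median -0.11), and 4 had the highest 3 samples of the set. Stab1, the highest of that list by mean, had 24.34, 23.48 and 23.75 TPM in the Tmem216-/- samples, against 19.41, 20.09 and 27.58 TPM in the wild type samples. It thus did not share the profile of the set. Stab2, a sinusoid scavenger receptor chosen after its values were seen, had 2.5, 0.56 and 0.54 TPM in the Tmem216-/- samples, against 2.19, 2.32 and 0.30 TPM in the wild type samples. The part of these cells in the levels of the set was not tested.

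Of the 14 genes on the list for the yolk sac visceral endoderm, the defining genes Cubn, Amn and Rhox5 did not exceed 1.62 TPM in any sample. Cubn had 0.30, 0.29 and 0.27 TPM in the Tmem216-/- samples, against 0.24, 0.29 and 0.31 TPM in the wild type samples. Amn ranged between 0.21 and 0.36 TPM in the Tmem216-/- samples and between 0.24 and 0.31 TPM in the wild type samples, and Rhox5 between 0.97 and 1.56 TPM in the Tmem216-/- samples and between 0.84 and 1.62 TPM in the wild type samples. Of the 6 tested genes on that list 4 were higher and 2 lower in value (median 0.04), and 2 had the highest 3 samples of the set. These were Pla2g12b, with 2.14, 0.13 and 0.06 TPM in the Tmem216-/- samples, against 2.90, 4.11 and 0.14 TPM in the wild type samples, and Lgals2, with 1.03, 0.00 and 0.00 TPM in the Tmem216-/- samples, against 3.60, 2.43 and 0.00 TPM in the wild type samples. Both were named after their values were seen. Both reached 1 TPM in only those 3 samples, so the filter fixed in advance which samples were their highest. The highest of the list, Dab2 and Cited1, are also used by other tissues: Dab2 ranged between 45.8 and 54.6 TPM in the Tmem216-/- samples and between 39.3 and 45.7 TPM in the wild type samples. Cited1 ranged between 19.2 and 35.2 TPM in the Tmem216-/- samples and between 12.4 and 17.9 TPM in the wild type samples. The part of yolk sac cells in the levels of the set was not tested. The 3 primitive globins were higher in value (median 0.48), the gut and pancreas list had 2 higher and 3 lower of 5 (median -0.40), and 0 of 12 trophoblast genes reached the tested set.

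Heart muscle genes and Hox genes of the tail end were measured beside the set. Of 18 heart muscle genes, 13 were called and rose in Tmem216-/- (median log2 fold change 3.74 over the 18). Their summed level was 1491, 3346 and 2188 TPM in the Tmem216-/- samples, against 177, 310.1 and 249.4 TPM in the wild type samples. All 12 tested Hox genes had lower values in Tmem216-/- (median -1.07) and 0 were called. Summed over 14, they had 59.2, 21.4 and 94.4 TPM in the Tmem216-/- samples, against 202, 189 and 83.5 TPM in the wild type samples. The Hox sums of the genotypes overlapped, and 0 of the 12 tested Hox genes had the highest 3 samples of the set. Wild type replicate 3 was the lowest wild type sample for the Hox sum as it was for the secreted proteins. Among the Tmem216-/- samples the order differed: replicate 1, high for the set, had a lower Hox sum than replicate 3. Which part of the embryo each sample holds is not in the labels, and its part in these levels was not tested.

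**Figure D5:**
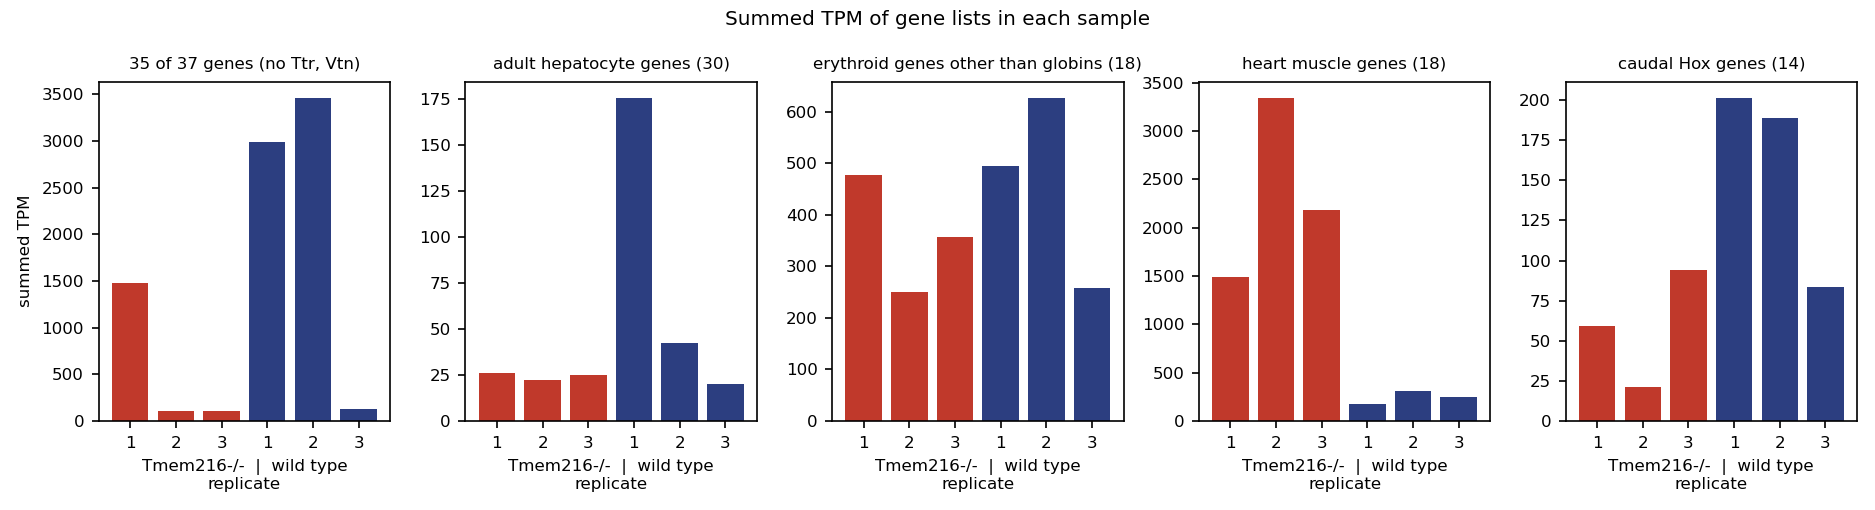
Bars are summed TPM per sample, starting at 0, with Tmem216-/- replicates 1 to 3 in red left of wild type replicates 1 to 3 in blue, for the set without Ttr and Vtn and for 4 other lists (number of genes in brackets). The set is low in 3 samples of both genotypes, the adult liver list stands at 176 TPM in wild type replicate 1 and at 42.2 TPM or less in the other 5 samples, and the heart list separates the genotypes.

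The 12 genes outside the set with the profile most like its mean log2 level, among 11760 with a mean of at least 5 TPM, had Pearson r between 0.982 and 0.998 over the 6 samples, values that rest on the gap between the high and the low samples. They were Slc40a1, E2f4, Blvrb, C3, Steap3, Stard10, Cfb, Sptb, Bms1, Tspo2, Cpox and Hmox1. Pearson r does not take in the size of a difference, and some of these genes varied little. E2f4 ran between 71.9 and 89.45 TPM over the 6 samples, and Bms1 between 37.35 and 44.14 TPM. The closest, the iron exporter Slc40a1, had 14.1, 6.65 and 7.04 TPM in the Tmem216-/- samples, against 18.1, 18.1 and 7.82 TPM in the wild type samples. The complement component C3, itself a secreted liver protein, had 7.22, 1.04 and 1.36 TPM in the Tmem216-/- samples, against 27.3, 18.3 and 1.14 TPM in the wild type samples. As background, Cpox encodes an enzyme of haem synthesis, Hmox1 one that breaks haem down, Sptb a spectrin of the red cell and E2f4 a transcription factor of the cell cycle.

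By position, 19 of the 37 genes lay in 7 groups of neighbours no more than 500 kb apart, and the 37 genes lay on 15 chromosomes (GRCm38). Alb and Afp span 48.0 kb at chr5:90460897-90508907, and Apoa1, Apoc3 and Apoa4 span 14.9 kb at chr9:46228580-46243459. Neighbours did not always share a profile: in Tmem216-/- replicate 2, Afp was at 0.0702% of its level in wild type replicate 1 and Alb at 3.26%. Apoa1 was at 3.16% there and its neighbour Apoc3 at 9.81%.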

How the data were processed

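Total RNA was sequenced in 3 Tmem216-/- and 3 wild type samples. Per the submitters' processing notes, the authors used CASAVA 1.8, HISAT2, StringTie, RSEM and mm10, with no role given for each. They deposited TPM per gene, which hold no depth, so no count model was used. Of 56359 rows, 823 are assembled loci, and 27 gene names that a spreadsheet had turned into dates were restored from the identifiers. A further 2 numeric columns equal the group means within 3.3e-06 TPM and were left out. Genes that reached 1 TPM in 3 or more of the 6 samples were fitted as log2(TPM + 1) with limma 3.58.1 (R 4.3.3, eBayes with a trend, two-sided). P-values were adjusted over all 16411 by the method of Benjamini and Hochberg, and a gene was called at 0.05. SE is limma's moderated standard error.

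All 37 genes are named by role, with values in every sample for the highest of each role, the extremes of fold change and those least like the rest. Genes from other lists were to be the highest by mean TPM, and others are said to be chosen after their values were seen, apart from the defining markers. The genes and lists were chosen with earlier results of these data known. The adult liver list and the count of genes by their highest 3 samples were added later; that count replaces the planned correlations between genes, since the samples fall into separate sets. Motifs were searched by exact letters in RefSeq promoters (GRCm38.p6). Positions are from GENCODE for GRCm38.

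The settings varied were the pseudocount (0.1 or 5), the filter (none, or 5 TPM), 3 other scalings, eBayes without a trend or robust, the replicate number as a block, and each sample left out. Some markers on the lists are not reported here.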

Additional observations from a re-analysis of the deposited data

How the results depend on the processing

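No fitted gene of the set was called under any alternative run. The set had 37 genes fitted with no filter, 28 with the filter at 5 TPM and 35 otherwise. The median log2 fold change of the set stayed negative, between -2.72 (without wild type replicate 3) and -0.96 (without wild type replicate 1) when each sample was left out. It was -1.99 with a pseudocount of 0.1 and -1.09 with 5. The fold change of Serpinc1 was 0.01 without wild type replicate 1 and ran between -1.21 and 0.01 over the samples left out; the cause was not tested. The number of genes called in the whole table was 17, and it was 0 with no filter on low values, where 30598 genes were fitted. With each sample left out it ran between 0 and 27: 27 without Tmem216-/- replicate 1, 9 without replicate 2 and 7 without replicate 3, and 0, 2 and 1 without wild type replicates 1, 2 and 3. The count of 34 genes with Tmem216-/- replicate 1 and wild type replicates 1 and 2 on top was 34 under each scaling. The median-of-ratios factors lay between 0.991 and 1.024, so that scaling could hardly reorder the samples. Within the genotypes it was 34, and with samples left out 34 to 35. The condition is looser in those runs, so the count could not fall and they are no check of it.

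With the replicate number as a block, 25 genes were called in all and 0 of the set, whose lowest adjusted p by limma was 0.617. The deviations of same-numbered samples from their group means correlated at 0.0161, -0.0934 and 0.101. For differently numbered samples the values lay between -0.147 and 0.142. These values cannot show whether same-numbered samples were collected or handled together. The unknown depth limits what can be said of levels below 1 TPM.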
